A study of Mus musculus with 12 samples.

Results

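The levels of 10 genes that sense endoplasmic reticulum (ER) stress or carry its signal were read across 12 bulk RNA-seq libraries of mouse mammary tumors: Ern1, Xbp1 and Dnajb9 of the IRE1 arm, Atf6, Atf6b and the chaperone Hspa5, and Eif2ak3, Atf4, Ddit3 and Ppp1r15a of the PERK arm. The genes were chosen by name, and all 10 were found among the 52636 gene identifiers of each count file and passed the filter on low counts. The tumors were of 2153L, a p53-null mammary tumor from a genetically engineered mouse, which the labels class as TNBC (triple-negative breast cancer) and which was transplanted to the mammary fat pads of Balbc females. They carried P53ERTAM, a p53 fused to a tamoxifen-responsive part of the estrogen receptor, or the empty vector (EV). Mice were given Combo, which is ORIN1001, an inhibitor of the RNase of IRE1α (150 mg/kg daily), with docetaxel, which stabilises microtubules (20 mg/kg weekly), or Vehicle, for 8 days. The 4 groups were P53ERTAM Combo, P53ERTAM Vehicle, EV Combo and EV Vehicle, with 3 tumors each. No group received either drug alone, so the actions of ORIN1001 and docetaxel cannot be told apart. The labels do not say which mice were given tamoxifen, which promoter drove the p53 fusion, or whether each tumor came from a mouse of its own, so p-values measure the spread between these libraries.

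The unfolded protein response links the load of unfolded protein in the ER to gene expression through 3 sensors. IRE1α (Ern1) removes a short intron from Xbp1 mRNA, which then encodes an active transcription factor, and its RNase also cuts other mRNAs, a process called RIDD. PERK (Eif2ak3) phosphorylates eIF2α, which lowers general translation while favouring that of ATF4, and ATF6 is released by proteolysis in the Golgi to act in the nucleus. Hspa5 encodes BiP, the chaperone that binds all 3 sensors and is itself induced by the response. In the breast, Xbp1 is known as a gene of secretory and luminal epithelium, and it is also abundant in plasma cells.

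The stretch of Xbp1 that IRE1α cuts is shown because ORIN1001 is directed at this reaction. It lies in exon 4 of Xbp1, within the coding sequence, at chr11:5524270-5524313 on the plus strand (GRCm38), and capitals mark the hexamer at each of the 2 cut sites.
Xbp1 cleavage region: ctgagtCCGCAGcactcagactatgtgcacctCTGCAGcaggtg
Cutting at both sites takes out 26 bases (positions 5524279 to 5524304) and shifts the reading frame downstream. Xbp1 itself spans chr11:5520659-5525893 on the plus strand. Counts per gene pool the cut and uncut forms, so every Xbp1 value below is total Xbp1 mRNA and carries no measure of splicing.

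Promoters are shown for 3 members whose mRNA was lower in EV Combo than in EV Vehicle tumors, and a stretch of Hspa5 for the ER stress response element (ERSE). Sequences were taken from RefSeq (GRCm38.p6), in which 9 of the 10 members had an entry and Atf6 did not. Both strands of the 250 bases before each gene start were searched. The motifs were the ERSE (the letters CCAAT and CCACG with 9 bases between them), either of its parts alone and the core ACGT. TGACGTGG (the UPRE, which holds ACGT and, on the other strand, CCACG) and TGATGNAA (the composite site of ATF4 and C/EBP factors) were searched for as well. Capitals mark the CCAAT box, the CCACG part and the ACGT core on either strand in the 250 bases before the Xbp1 start (chr11:5520391-5520640), the Atf4 start (chr15:80254934-80255183) and the Atf6b start (chr17:34646896-34647145), and both parts of the ERSE of Hspa5 (chr2:34772020-34772049), all on the plus strand. In the annotation of GRCm38 these genes span chr15:80255184-80257540 (Atf4), chr17:34647146-34655074 (Atf6b) and chr2:34771970-34777547 (Hspa5), and the Hspa5 stretch lies before the RefSeq start but within that span.
Xbp1: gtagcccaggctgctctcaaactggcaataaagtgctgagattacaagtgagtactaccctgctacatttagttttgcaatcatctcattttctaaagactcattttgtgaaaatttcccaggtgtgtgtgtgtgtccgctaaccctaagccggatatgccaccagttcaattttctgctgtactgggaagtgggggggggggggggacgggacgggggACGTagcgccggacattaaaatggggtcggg
Atf4: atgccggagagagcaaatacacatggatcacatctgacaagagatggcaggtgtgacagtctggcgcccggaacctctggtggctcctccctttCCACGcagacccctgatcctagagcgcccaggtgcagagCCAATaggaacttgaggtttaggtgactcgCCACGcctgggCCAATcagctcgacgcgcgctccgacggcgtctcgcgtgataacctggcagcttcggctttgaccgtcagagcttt
Atf6b: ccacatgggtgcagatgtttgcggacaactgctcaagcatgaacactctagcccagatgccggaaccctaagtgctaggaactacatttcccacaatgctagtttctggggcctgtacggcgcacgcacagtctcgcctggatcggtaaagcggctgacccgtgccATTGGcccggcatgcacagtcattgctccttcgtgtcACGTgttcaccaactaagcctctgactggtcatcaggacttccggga
Hspa5 ERSE: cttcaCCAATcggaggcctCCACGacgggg
The whole ERSE was found in Hspa5 alone of the 9 members and in 0.113% of 32851 promoters. CCACG was found in 4 members (28.3% of all promoters), CCAAT in 6 (33.9%) and ACGT in 6 (26.9%), while TGACGTGG (0.563%) and TGATGNAA (3.45%) were found in none. These are matches of letters in a window and say nothing of binding.

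The libraries held 13484873 to 24424964 counts each, 17970 genes were tested, and raw counts of the members ranged from 97 (Ddit3) to 23252 (Hspa5). Cdkn1a, the p21 gene and a known p53 target, averaged 81.2 ± 7.59 normalised RPKM in P53ERTAM Combo, 54.9 ± 14.9 in P53ERTAM Vehicle, 15.2 ± 7.86 in EV Combo and 14.7 ± 4.85 in EV Vehicle tumors (SD, n = 3 each). It was 1 of 4 genes set as checks of the vector. Of these, 4 were called higher in P53ERTAM than in EV tumors under Combo (log2 0.40 to 2.42), against 22.1% of all genes. Under Vehicle 3 were called higher, against 17.9%, and the 4 values ran from 0.17 to 1.90. The epithelial markers Epcam and Krt8 were present in all groups. The 3 EV Combo libraries stood apart in make-up: the noncoding RNA Gm26917 took 10.7 to 11.1% of their counts against 0.133 to 1.10% elsewhere, and protein-coding genes took 80.9 to 81.7% against 86.7 to 95.8%. Because all 3 libraries of the group share this make-up, it and the treatment cannot be told apart in any comparison with EV Combo. P53ERTAM Vehicle replicate 2 had the lowest total and the lowest protein-coding share outside EV Combo. Summed epithelial markers were 2302 to 2826 CPM in P53ERTAM Combo, 1890 to 2353 in P53ERTAM Vehicle, 2167 to 2698 in EV Combo and 3562 to 4395 in EV Vehicle. Summed fibroblast markers were 1485 to 2209, 1553 to 3879, 1147 to 2098 and 581 to 643 CPM in the same groups, and summed macrophage markers 1053 to 1522, 473 to 536, 343 to 461 and 268 to 576 CPM. Their part in the results below was not tested, and in bulk tumors fewer cells of a type and less RNA per cell cannot be told apart.

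Levels are given as normalised RPKM, CPM of the TMM-scaled library per kilobase of exon. Where groups are said to overlap or not, this describes the values of the gene named. The share of all genes without overlap was counted only between the vectors under Combo. Ordered by their mean over the 12 libraries, the members ran from Hspa5 (199 RPKM, above 99.4% of the genes tested) and Atf4 (109) through Xbp1 (39.7), Atf6b (32.2), Atf6 (11.6), Eif2ak3 (9.81), Ern1 (8.64), Ddit3 (6.87) and Dnajb9 (5.79) to Ppp1r15a (4.96, above 53.4%). The ranges of neighbours in this order overlapped, except those of Atf6b and Atf6. Ddit3 exceeded Dnajb9 in 6 of 12 libraries, so these 2 levels had no fixed order, and Xbp1 exceeded Atf6b in 9 of 12. The highest library was only 1.31 times the lowest for Ern1, 1.46 times for Atf6b and 1.65 times for Eif2ak3. The variation was widest in Ppp1r15a (4.70 times), Ddit3 (4.48 times) and Xbp1 (3.55 times). By group mean, EV Combo was the lowest of the 4 groups in 8 of the 10 members, all but Ern1 and Hspa5.

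**Figure D1:**
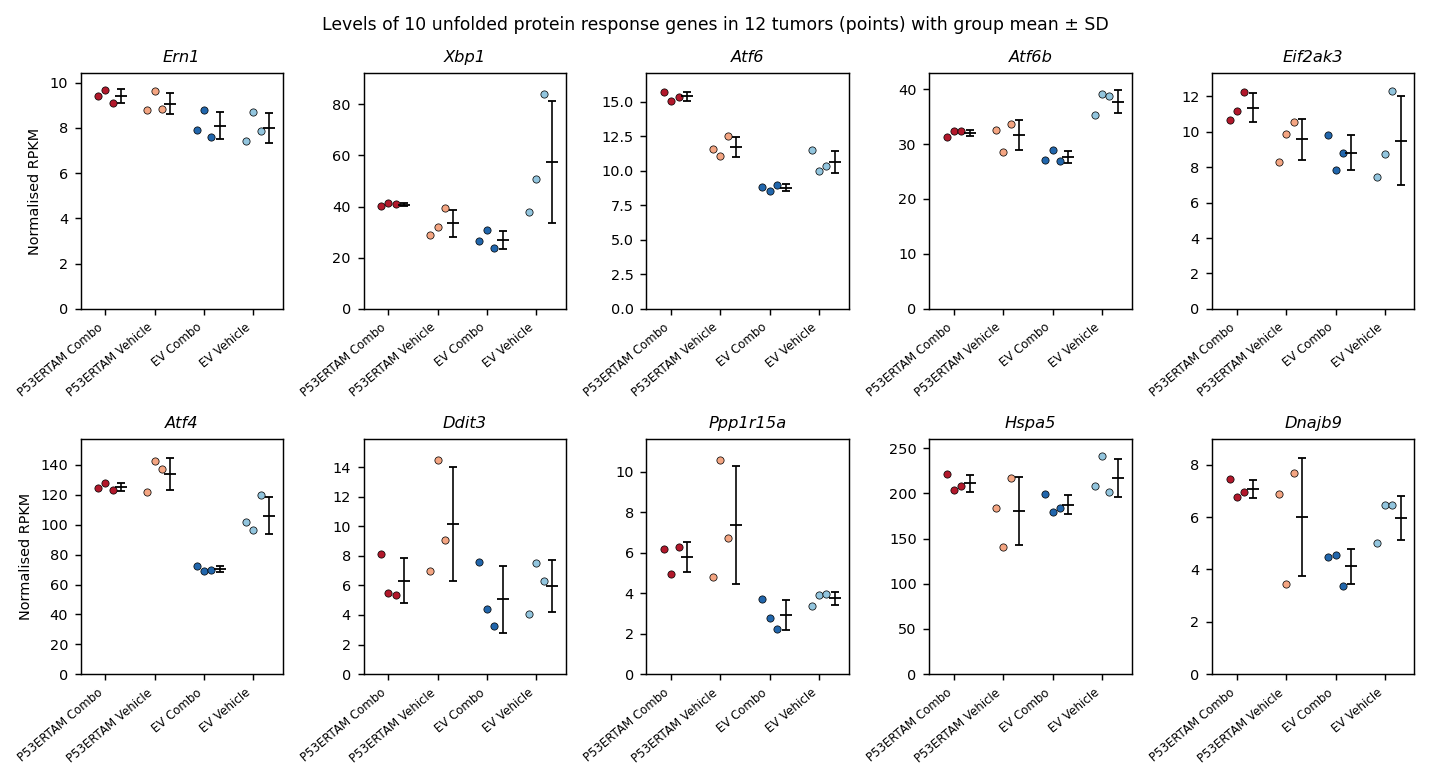
Normalised RPKM (vertical axis, from 0) of each of the 10 genes in the 4 groups, with 1 point per tumor and the group mean ± SD beside the points (n = 3). EV Vehicle replicate 3 stands highest in Xbp1 at 83.9 RPKM, P53ERTAM Vehicle replicate 2 stands highest in Ddit3 at 14.4 and Ppp1r15a at 10.6, and the EV Combo points of Atf4 lie below all others.

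In the IRE1 arm, Ern1, the sensor itself, stood at 9.42, 9.69 and 9.08 RPKM in P53ERTAM Combo, 8.76, 9.62 and 8.82 in P53ERTAM Vehicle, 7.92, 8.78 and 7.60 in EV Combo and 7.40, 8.69 and 7.86 in EV Vehicle tumors. Combo and Vehicle libraries of the same vector overlapped, and the 3 P53ERTAM Combo libraries lay above all EV libraries. Xbp1, the target of its splicing, stood at 40.1, 41.2 and 41.0 RPKM in P53ERTAM Combo, 29.0, 32.1 and 39.3 in P53ERTAM Vehicle, 26.4, 30.7 and 23.6 in EV Combo and 37.7, 51.0 and 83.9 in EV Vehicle tumors. EV Combo lay below EV Vehicle without overlap, EV Vehicle was the most dispersed group, and P53ERTAM Combo was the tightest. Dnajb9, an ER co-chaperone (ERdj4) and XBP1 target, stood at 7.46, 6.78 and 6.97 RPKM in P53ERTAM Combo, 6.86, 3.46 and 7.68 in P53ERTAM Vehicle, 4.48, 4.53 and 3.35 in EV Combo and 4.99, 6.45 and 6.46 in EV Vehicle tumors. EV Combo lay below EV Vehicle without overlap, and P53ERTAM Vehicle replicate 2 was low as well.

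In the ATF6 arm, Atf6 stood at 15.8, 15.1 and 15.4 RPKM in P53ERTAM Combo, 11.6, 11.1 and 12.5 in P53ERTAM Vehicle, 8.87, 8.52 and 8.98 in EV Combo and 11.5, 9.97 and 10.4 in EV Vehicle tumors. Under Combo the P53ERTAM libraries were above, and the EV libraries below, all Vehicle libraries. Its paralog Atf6b, also a membrane-bound transcription factor, stood at 31.3, 32.3 and 32.4 RPKM in P53ERTAM Combo, 32.5, 28.5 and 33.7 in P53ERTAM Vehicle, 27.1, 28.9 and 26.9 in EV Combo and 35.4, 39.1 and 38.7 in EV Vehicle tumors. The EV Vehicle libraries were the highest of the 12, and EV Combo lay below them without overlap. Hspa5, the BiP gene and a known ATF6 target, stood at 222, 204 and 208 RPKM in P53ERTAM Combo, 184, 141 and 217 in P53ERTAM Vehicle, 199, 179 and 184 in EV Combo and 208, 241 and 202 in EV Vehicle tumors. The lowest Hspa5 library was P53ERTAM Vehicle replicate 2, and the EV groups did not overlap.

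In the PERK arm, Eif2ak3, the PERK gene, stood at 10.6, 11.2 and 12.3 RPKM in P53ERTAM Combo, 8.31, 9.86 and 10.6 in P53ERTAM Vehicle, 9.82, 7.83 and 8.78 in EV Combo and 7.46, 8.73 and 12.3 in EV Vehicle tumors. The P53ERTAM groups lay side by side without overlap, and the EV groups overlapped. Atf4, the transcription factor translated when eIF2α is phosphorylated, stood at 125, 128 and 123 RPKM in P53ERTAM Combo, 122, 143 and 137 in P53ERTAM Vehicle, 72.3, 68.8 and 69.9 in EV Combo and 102, 96.5 and 119.9 in EV Vehicle tumors. EV Combo was the lowest group without overlap, and every P53ERTAM library was above every EV library. Ddit3, which encodes the pro-apoptotic factor CHOP, stood at 8.11, 5.49 and 5.38 RPKM in P53ERTAM Combo, 6.95, 14.4 and 9.09 in P53ERTAM Vehicle, 7.59, 4.39 and 3.23 in EV Combo and 4.06, 7.50 and 6.26 in EV Vehicle tumors. All 4 groups overlapped with at least 1 other. Ppp1r15a, which encodes GADD34, the inducible subunit of the eIF2α phosphatase, stood at 6.20, 4.94 and 6.28 RPKM in P53ERTAM Combo, 4.83, 10.6 and 6.73 in P53ERTAM Vehicle, 3.72, 2.76 and 2.25 in EV Combo and 3.39, 3.91 and 3.97 in EV Vehicle tumors. Every P53ERTAM library was above every EV library. Eif2ak3, Ddit3, Ppp1r15a and Dnajb9 overlap a gene on the opposite strand, and the strand setting of the counting is not given in the sources used here, so their counts may include reads of that gene.

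Combo against Vehicle in EV tumors asked what treatment does in tumors without the p53 fusion. Of the 10 members 4 fell and 0 rose, against 21.1% of all genes tested called lower and 18.8% called higher. All 10 members are protein-coding, and of 13911 protein-coding genes tested 3505 were called lower and 1943 higher. No member was higher at an unadjusted p below 0.05, by DESeq2 or by voom either. At least 1 gene of each arm was among those that fell. Xbp1 averaged 26.9 ± 3.55 RPKM in EV Combo and 57.5 ± 23.8 in EV Vehicle tumors (SD, n = 3 each), and its log2 fold change was -1.10 (SE 0.229, edgeR adjusted p = 0.00278). Atf4 averaged 70.3 ± 1.78 RPKM in EV Combo and 106 ± 12.2 in EV Vehicle tumors (log2 -0.59, SE 0.0997, adjusted p = 0.000744). Atf6b averaged 27.6 ± 1.08 RPKM in EV Combo and 37.7 ± 2.06 in EV Vehicle tumors (log2 -0.45, SE 0.0936, adjusted p = 0.00244). These 3 calls held under all 21 alternatives (12 refits without 1 library and 9 other settings), but the Xbp1 value rested on its highest library and was -0.69 (adjusted p = 0.00574) without EV Vehicle replicate 3. Atf6 passed with a smaller difference (log2 -0.27, SE 0.0902, adjusted p = 0.0278) and lost its call under 13 of the 21 alternatives, 8 of them refits without 1 library (without EV Vehicle replicate 1 or 3, or without any 1 of the Combo libraries of either vector). Its value was -0.52 (adjusted p = 0.00103) with GC and length offsets and -0.14 (adjusted p = 0.198) among protein-coding genes alone.

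The other 6 members did not pass in EV tumors. Ern1 had a log2 fold change of 0.020 (adjusted p = 0.893, 95% interval -0.19 to 0.23), so at the RNA level a change of the sensor beyond these bounds was not seen. Hspa5 was at -0.21 (adjusted p = 0.240, 95% interval -0.50 to 0.085) and Dnajb9 at -0.54 (adjusted p = 0.102, 95% interval -1.07 to 0.00043). Eif2ak3 (-0.11), Ddit3 (-0.23) and Ppp1r15a (-0.37) had adjusted p-values of 0.641, 0.628 and 0.282. The median of the 10 log2 fold changes was -0.32, beside -0.067 over all genes tested and -0.13 over protein-coding genes. Refitting protein-coding genes alone shifted the values of those genes by a median of 0.13. In that refit of the EV tumors Xbp1 (-0.97), Atf4 (-0.46) and Atf6b (-0.32) still passed, Atf6 did not, and Eif2ak3 was at 0.023. With offsets for GC content and length, 4949 genes were called lower and 2647 higher, against 3783 and 3386 without them.

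Markers of cell types moved in the same comparison. Of 10 epithelial markers 6 fell, against 21.1% of all genes, and their sum in EV Combo lay below that in EV Vehicle tumors without overlap. Of 10 B and plasma cell markers 5 were tested and 4 fell, with sums of 13.7 to 22.5 CPM in EV Combo and 29.3 to 591 CPM in EV Vehicle tumors, and the plasma cell gene Tnfrsf17 was at 0 in both groups. The highest sum was in EV Vehicle replicate 2 and the highest Xbp1 in EV Vehicle replicate 3. The part of these cells in the Xbp1 value was not tested.

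**Figure D2:**
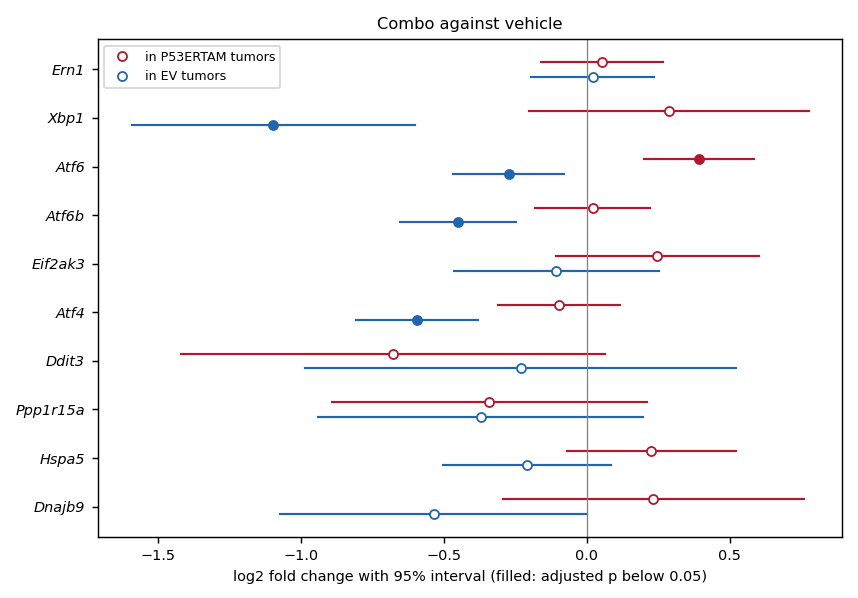
Log2 fold change of Combo against Vehicle (horizontal axis) for each gene, P53ERTAM tumors in red above EV tumors in blue, with lines for the 95% interval and filled points for adjusted p below 0.05. In EV tumors Xbp1 (-1.10), Atf4 (-0.59), Atf6b (-0.45) and Atf6 (-0.27) are filled on the left, and in P53ERTAM tumors only Atf6 (0.39) is filled, on the right.

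Combo against Vehicle in P53ERTAM tumors asked the same of tumors that carry the p53 fusion. Of the 10 members 1 rose and 0 fell, against 3.3% of all genes called higher and 2.98% called lower. Among the 13911 protein-coding genes 571 were called higher and 310 lower. No member was lower at an unadjusted p below 0.05, by DESeq2 or by voom either. The member was Atf6, at 15.4 ± 0.330 RPKM in P53ERTAM Combo and 11.7 ± 0.724 in P53ERTAM Vehicle tumors (log2 0.39, SE 0.0898, adjusted p = 0.0266). Its value stayed between 0.35 and 0.44 in refits without 1 library, but the call was lost without P53ERTAM Combo replicate 1 (adjusted p = 0.105), 2 (0.0557) or 3 (0.102), without P53ERTAM Vehicle replicate 1 (0.0848) or 2 (0.0802), and with GC and length offsets (0.0514). Xbp1 (0.29, adjusted p = 0.469, 95% interval -0.20 to 0.77) and Eif2ak3 (0.25, adjusted p = 0.385, 95% interval -0.11 to 0.60) did not pass. Ddit3 had a log2 fold change of -0.68 (adjusted p = 0.244), with an interval of -1.42 to 0.063. The other 6 lay between -0.34 (Ppp1r15a) and 0.23 (Hspa5 and Dnajb9), with Atf4 at -0.098 and Ern1 at 0.052. The number of genes called in this comparison over all genes depended strongly on single libraries: it was 1129 with all 12, 77, 514 and 96 without P53ERTAM Combo replicate 1, 2 and 3, 121, 183 and 2130 without P53ERTAM Vehicle replicate 1, 2 and 3, and 1726 without EV Vehicle replicate 3. With GC and length offsets 493 genes were called higher and 689 lower, against 593 and 536 without them.

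The difference between the Combo effects in P53ERTAM and EV tumors was tested as the interaction of vector and treatment, in which a positive value means a more positive effect in P53ERTAM tumors. Of the members 4 passed, all positive, against 18.8% of all genes called higher and 17.2% called lower. Among the 13911 protein-coding genes 3207 were called higher and 1629 lower. The difference was 1.38 on the log2 scale for Xbp1 (SE 0.321, adjusted p = 0.00609), where Combo gave 0.29 in P53ERTAM and -1.10 in EV tumors. It was 0.67 for Atf6 (SE 0.127, adjusted p = 0.00195), the 1 member whose change was called in opposite directions. The interaction calls of Xbp1 and Atf6 held under all 20 alternatives. For Atf4 it was 0.50 (SE 0.140, adjusted p = 0.0154), lost among protein-coding genes alone (0.31, adjusted p = 0.108) and with GC and length offsets (adjusted p = 0.0813). For Atf6b it was 0.47 (SE 0.132, adjusted p = 0.0147), lost among protein-coding genes alone (0.29, adjusted p = 0.0878), without the filter on low counts (0.0526) and without EV Vehicle replicate 2 (0.0518).

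Among the members that did not pass the interaction test, Hspa5 (0.44, adjusted p = 0.0944) and Dnajb9 (0.77, adjusted p = 0.102) had unadjusted 95% intervals that began just above 0. Ern1 (0.032) and Ppp1r15a (0.031) were near 0 and changed sign with the scaling, and Ddit3 (-0.45) was the 1 negative value. The median of the members was 0.45, beside 0.13 over all genes tested and 0.23 over protein-coding genes. The refit among protein-coding genes shifted the values of those genes by a median of -0.18.

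P53ERTAM against EV under Vehicle asked how the vector alone relates to the pathway. Of the members 2 were higher and 2 lower, against 17.9% and 19.8% of all genes. Among the 13911 protein-coding genes 2187 were called higher and 3406 lower. Ppp1r15a averaged 7.38 ± 2.93 RPKM in P53ERTAM Vehicle and 3.76 ± 0.319 in EV Vehicle tumors (log2 0.97, SE 0.260, adjusted p = 0.0107). Atf4 averaged 134 ± 10.9 RPKM in P53ERTAM Vehicle and 106 ± 12.2 in EV Vehicle tumors (log2 0.34, SE 0.0991, adjusted p = 0.0169). Xbp1 averaged 33.5 ± 5.25 RPKM in P53ERTAM Vehicle and 57.5 ± 23.8 in EV Vehicle tumors (log2 -0.78, SE 0.227, adjusted p = 0.0170), although the 2 groups overlapped. Atf6b was lower as well (log2 -0.26, SE 0.0933, adjusted p = 0.0440), at -0.56 (adjusted p = 0.00262) with GC and length offsets.

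Each of these 4 calls was lost both in some refit without a single library and under some other setting. The other settings were voom for Ppp1r15a, and GC and length offsets or a fit of 2 groups for Atf4. For Xbp1 they were no filter on low counts or a fit of 2 groups. Ppp1r15a was at 0.62 (adjusted p = 0.0632) without P53ERTAM Vehicle replicate 2, its highest library, and Atf4 had an adjusted p of 0.0646 without EV Vehicle replicate 2. Xbp1 was at -0.38 (adjusted p = 0.0789) without EV Vehicle replicate 3, and had adjusted p-values of 0.0755 and 0.0682 without P53ERTAM Vehicle replicate 1 and 2. Atf6b kept its call under 4 of 21 alternatives. Among the settings that lost it were DESeq2, voom, no filter on low counts, protein-coding genes alone and a fit of 2 groups. Ddit3 had a log2 fold change of 0.77 (adjusted p = 0.0961), Hspa5 -0.26 (0.143), Ern1 0.18 (0.162) and Atf6 0.14 (0.225), and Eif2ak3 and Dnajb9 were both at 0.013. With GC and length offsets 2489 genes were called higher and 4617 lower in this comparison, against 3217 and 3567 without them.

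P53ERTAM against EV under Combo gave the most member calls. Among the 13911 protein-coding genes 3705 were called higher and 2714 lower. Of the members 5 were higher and 0 lower, against 22.1% of all genes called higher and 22% called lower, and P53ERTAM lay above EV without overlap in 9 of the 10 members, all but Ddit3, and in 32.3% of all genes tested, with 29.4% below without overlap. No member was lower at an unadjusted p below 0.05, by DESeq2 or by voom either. Atf4 averaged 125 ± 2.66 RPKM in P53ERTAM Combo and 70.3 ± 1.78 in EV Combo tumors (log2 0.83, SE 0.0999, adjusted p = 4.19e-05). Atf6 averaged 15.4 ± 0.330 RPKM in P53ERTAM Combo and 8.79 ± 0.238 in EV Combo tumors (log2 0.81, SE 0.0905, adjusted p = 2.63e-05). Ppp1r15a averaged 5.81 ± 0.751 RPKM in P53ERTAM Combo and 2.91 ± 0.745 in EV Combo tumors (log2 0.999, SE 0.263, adjusted p = 0.00809). These 3 calls held under all 21 alternatives.

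Dnajb9 (log2 0.78, SE 0.248, adjusted p = 0.0217) lost its call without EV Combo replicate 3 (adjusted p = 0.0833) or without P53ERTAM Combo replicate 1 (0.0655) or 3 (0.0535). Xbp1 (log2 0.60, SE 0.227, adjusted p = 0.0473) kept its call under 8 of 21 alternatives. It was lost without any 1 of the Combo libraries of either vector, without EV Vehicle replicate 2, without P53ERTAM Vehicle replicate 1 or 2, and under 4 other settings, with values of 0.43 to 0.71 in those cases. Eif2ak3 (0.37, adjusted p = 0.0882), Ern1 (0.21, 0.0938), Atf6b (0.21, 0.0790), Ddit3 (0.32, 0.477) and Hspa5 (0.17, 0.328) did not pass. All 10 values were positive, also under each of the 21 alternatives, and their median was 0.48, beside 0.062 over all genes tested and 0.13 over protein-coding genes. The refit among protein-coding genes shifted the values of those genes by a median of -0.11.

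**Figure D3:**
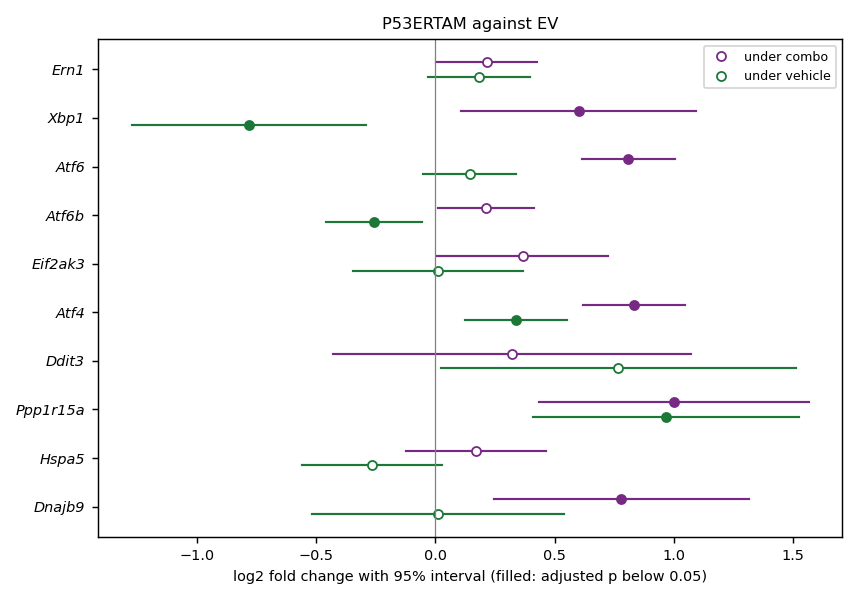
Log2 fold change of P53ERTAM against EV (horizontal axis) for each gene, under Combo in purple above under Vehicle in green, with lines for the 95% interval and filled points for adjusted p below 0.05. Under Combo 5 points are filled, all positive and up to 0.999, and under Vehicle 4 are filled, with Xbp1 (-0.78) and Atf6b (-0.26) on the negative side.

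The 5 comparisons share libraries, so their results are not independent of one another. EV Combo enters 3 of them as one of the groups, and it is the group with the lowest mean in most members.

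Within the libraries, the members did not move as 1 block. P53ERTAM Vehicle replicate 2 combined the highest Ddit3 and Ppp1r15a of the 12 with the lowest Hspa5 and a low Dnajb9, and EV Vehicle replicate 3 had the highest Xbp1 and Eif2ak3 of the 12 and the highest Atf4 of the EV libraries, with Atf6 and Ddit3 neither highest nor lowest in its group. The closest pair of members was Atf6b and Hspa5, whose log2 CPM, centred over the 12 libraries, differed by a root mean square of 0.162. Among 11472 protein-coding genes, those most like Xbp1 (own root mean square 0.462) included Tlcd2 at 0.153, Pnpla2 at 0.153 and Plekha2 at 0.172. Those most like Hspa5 (own 0.187) were Pex3 at 0.0812, the ER chaperone gene Hsp90b1 at 0.0853, Ythdf1 at 0.0864 and G3bp2 at 0.0870. Those most like Ddit3 (own 0.550) were the hexokinase gene Hk2 at 0.235, the glucose transporter gene Slc2a1 at 0.245, the collagen prolyl hydroxylase gene P4ha1 at 0.254 and the HIF prolyl hydroxylase gene Egln1 at 0.273. These distances describe 12 libraries that share 4 group means.

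**Figure D4:**
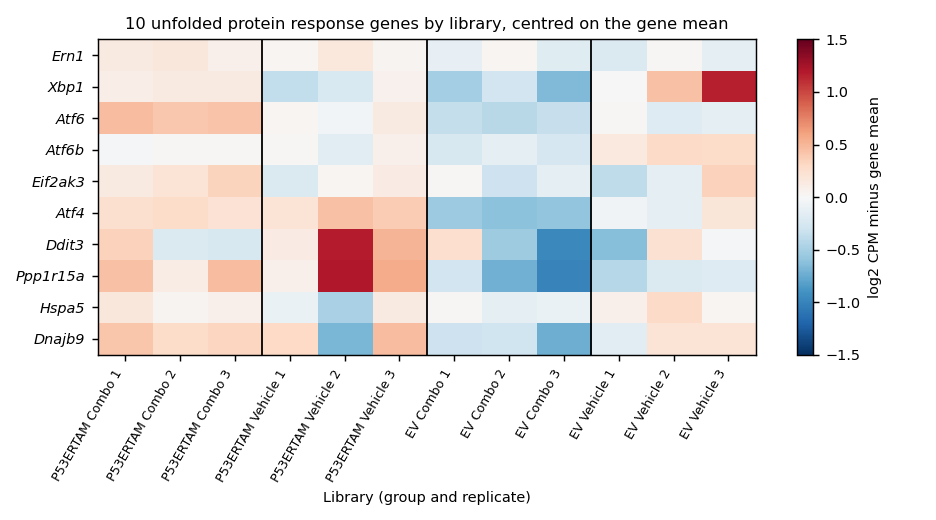
Log2 CPM of each gene minus its mean over the 12 libraries (color, from blue for low to red for high), with 1 column per library and lines between the groups. The EV Combo columns are blue for most genes, Xbp1 is deepest red in EV Vehicle replicate 3, and P53ERTAM Vehicle replicate 2 is red for Ddit3 and Ppp1r15a and blue for Hspa5 and Dnajb9.

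The rest of the pathway was read from 7 lists of known partners and targets, which were chosen with earlier results of these data known. In EV tumors under Combo, known targets of the transcription factors of all 3 arms were called lower. None of these targets was called higher by edgeR, DESeq2 or voom or had a positive change at an unadjusted p below 0.05. Of 20 XBP1 targets 14 fell (median log2 -0.54), among them Serp1 (-1.33), which encodes a partner of the translocon, Spcs3 (-1.30), of the signal peptidase, and Ssr3 (-0.79), of the translocon-associated complex. Of 10 ATF6 targets 9 fell (median -0.54), among them the chaperones Canx (-0.73) and Calr (-0.56) and the secreted factor Manf (-0.71). Of 18 ATF4 and CHOP targets 8 fell (median -0.44), among them Psat1 (-1.18) of serine synthesis, the transcription factor Cebpg (-0.90) and Mthfd2 (-0.73) of mitochondrial folate metabolism. The background was 21.1% of all genes and 3505 of 13911 protein-coding genes called lower, with 1943 of the latter called higher. The ATF6 target count was 4 or 5 when replicate 2 or 3 of EV Vehicle or of EV Combo was left out, and 4 among protein-coding genes alone.

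Genes on the partner lists of the arms were called in both directions in EV tumors. These lists are by arm, and not every gene on them acts on a sensor. Of all genes 21.1% were called lower and 18.8% higher, so that 2 of 7 or a single rise is near or below the background. Of 7 tested IRE1 partners 2 fell: Rtcb (-0.69), the ligase that joins the Xbp1 exons, and Tmbim6 (-0.66), an inhibitor of IRE1α. Ern2, the paralog of Ern1, was listed at 0 counts in every library and was not tested. Of 9 ATF6 partners 4 fell, among them Creb3 (-0.51) and the site-2 protease gene Mbtps2 (-0.43), and Creb3l2 (0.38) rose. The lower count was 1 or 2 when replicate 1 or 3 of EV Combo or replicate 2 or 3 of EV Vehicle was left out, and Creb3l2 was not called when replicate 1 or 3 of EV Combo or replicate 1 or 2 of EV Vehicle was left out. Of 10 PERK and eIF2 partners 4 fell, among them Ppp1r15b (-0.64), the constitutive phosphatase subunit, and the eIF2α gene Eif2s1 (-0.58), and the amino acid sensor kinase gene Eif2ak4 (0.44) rose.

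RIDD substrates, mRNAs known to be cut by IRE1α, were called in both directions. In EV tumors 3 of 8 rose, Col6a1 (1.69), Pdgfrb (1.48) and Sparc (0.53), and 2 fell, Tapbp (-0.53) and Hgsnat (-0.48), with a median of 0.15. Of all genes 18.8% were called higher and 21.1% lower, and the share of substrates that fell was near that background. The count that fell was 0 or 1 under 16 of the 21 alternatives, which include leaving out any 1 EV library, any 1 P53ERTAM Combo library or P53ERTAM Vehicle replicate 1. Col6a1, Pdgfrb and Sparc encode a collagen chain, a receptor and a matrix protein that are abundant in stroma. The 10 fibroblast markers, of which Pdgfrb is one, moved alongside: 7 of 10 rose, and their sum was 1147 to 2098 CPM in EV Combo and 581 to 643 CPM in EV Vehicle tumors. Their part in the RIDD values was not tested.

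In P53ERTAM tumors under Combo the same lists held few calls with edgeR. No XBP1 target and no ATF6 target passed with edgeR, with medians of 0.15 and 0.29, where 3.3% of all genes were called higher and 2.98% lower. At an unadjusted p below 0.05, 2 XBP1 targets were higher and 1 lower, and 5 ATF6 targets were higher. DESeq2 called 1 and voom 4 XBP1 targets higher and each called 1 lower, and they called 4 and 5 ATF6 targets higher. Of 18 ATF4 and CHOP targets (median 0.35) edgeR called 1 higher, while 8 were higher at an unadjusted p below 0.05. DESeq2 called 5 and voom 8 of them higher, and 0 were lower by any of these. The edgeR calls were Slc7a11 (0.91), the cystine transporter, of these 18, and Tapbp (0.69), an antigen-presentation chaperone, of 8 RIDD substrates, both higher. It also called Creb3 (0.52) of 9 ATF6 partners and Eif2ak2 (1.07), the double-stranded RNA kinase PKR, of 10 PERK and eIF2 partners higher. The calls of Slc7a11 and Tapbp were lost without P53ERTAM Combo replicate 1, 2 or 3 or P53ERTAM Vehicle replicate 1 or 2, and that of Creb3 in 9 of the 12 refits without 1 library, all but those without EV Vehicle replicate 1 or 3 or P53ERTAM Vehicle replicate 3. Of 10 macrophage markers 9 rose as well, and their sum was 1053 to 1522 CPM in P53ERTAM Combo and 473 to 536 CPM in P53ERTAM Vehicle tumors.

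**Figure D5:**
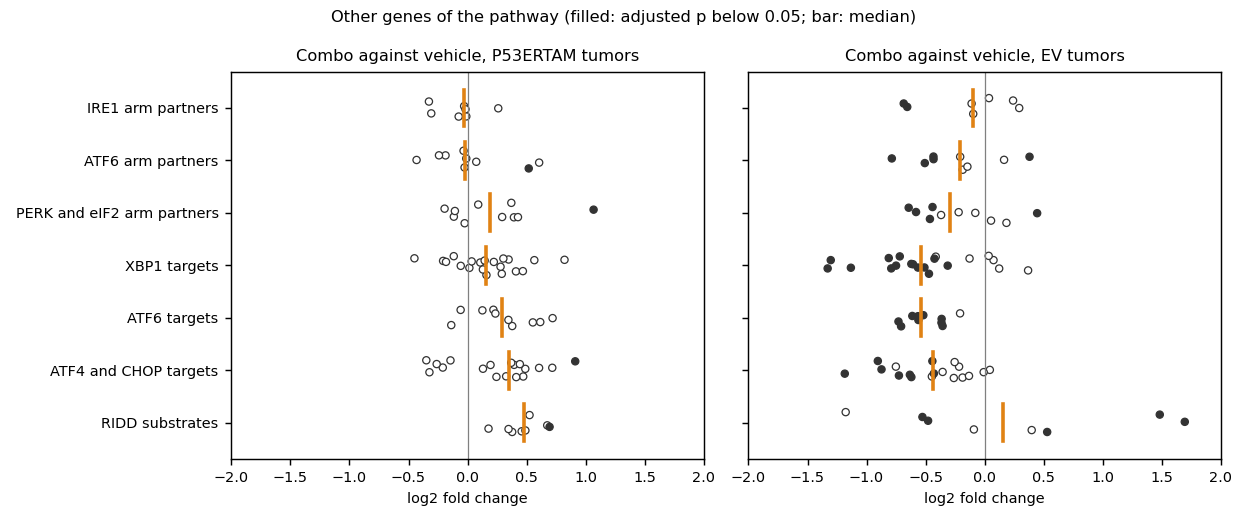
Log2 fold change of Combo against Vehicle (horizontal axis) for the genes of 7 pathway lists, in P53ERTAM tumors (left) and EV tumors (right), with filled points for adjusted p below 0.05 and an orange bar at the list median. In EV tumors 14 of 20 XBP1 targets and 9 of 10 ATF6 targets are filled and negative, and in P53ERTAM tumors 0 of either list are filled.

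For the interaction, 11 of 20 XBP1 targets (median 0.67), 8 of 10 ATF6 targets (0.86) and 9 of 18 ATF4 and CHOP targets (0.76) were called positive and none negative (by DESeq2, voom or an unadjusted p below 0.05 either), where 18.8% of all genes were called positive and the median of all genes was 0.13. Among the 13911 protein-coding genes 3207 were called positive and 1629 negative. Serp1 (1.62), Ddost (1.03) of the oligosaccharyl transferase and Dnajb11 (1.02), an ER co-chaperone, had the smallest p of the XBP1 targets. Manf (1.26), Calr (0.94) and Canx (0.86) had the smallest p of the ATF6 targets, and Psat1 (1.43), the asparagine synthetase gene Asns (1.11) and the amino acid transporter gene Slc7a5 (0.96) those of the ATF4 and CHOP targets. Of the RIDD substrates Tapbp (1.22) and Hgsnat (1.004) were called positive, and Col6a1 (-1.24) and Pdgfrb (-1.14) negative. Of the 2 negative calls 1 was lost without EV Combo replicate 3 or P53ERTAM Vehicle replicate 2 or 3. Of 7 tested IRE1 partners 3 were called positive and 0 negative, and of 9 ATF6 partners 2 and 1. Of 10 PERK and eIF2 partners 5 were positive and 1 negative, where 17.2% of all genes were called negative. Rtcb (0.66), Tmbim6 (0.64), Creb3 (1.02), Creb3l1 (1.39), Eif2s1 (1.01) and Eif2ak2 (1.01) were among the positive partners. Creb3l2 (-0.81) and Eif2ak4 (-0.64) were the negative ones.

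Between the vectors under Vehicle, targets were called in both directions. The background was 19.8% of all genes called lower and 17.9% called higher, and shares near these are no result about a list. Of 20 XBP1 targets 6 were lower, among them Sec61g (-0.91) of the translocon, and Edem1 (0.52), of ER-associated degradation, was higher. Of 10 ATF6 targets 4 were lower, among them Manf (-0.94) and Pdia4 (-0.59), and the chaperone gene Hyou1 (0.35) was higher. The ATF6 count was 1 or 2 when leaving out EV Vehicle replicate 2 or 3 or P53ERTAM Vehicle replicate 1 or 2. Of 18 ATF4 and CHOP targets 6 were lower, among them Psat1 (-1.67) and Shmt2 (-0.96), an enzyme of mitochondrial serine metabolism, and 3 were higher, the pseudokinase gene Trib3 (2.23), Ddit4 (1.04), an inhibitor of mTORC1, and Slc7a11 (0.62). The lower count was 3 without EV Vehicle replicate 3, and the higher count was 1 in 6 refits without 1 library, those without EV Vehicle replicate 1, P53ERTAM Vehicle replicate 2 or 3, or any P53ERTAM Combo library. Of 10 PERK and eIF2 partners 6 were lower, among them Eif2s1 (-0.63) and Eif2ak2 (-0.62), and 3 were lower without EV Vehicle replicate 2 or P53ERTAM Vehicle replicate 1 or 2. Of 8 RIDD substrates 4 were higher and 0 lower, among them Pdgfrb (2.02), Col6a1 (1.42) and Sparc (1.12). Summed fibroblast markers, which include Pdgfrb, were 1553 to 3879 CPM in P53ERTAM Vehicle and 581 to 643 CPM in EV Vehicle tumors. Their part in the RIDD values was not tested.

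Between the vectors under Combo, targets of all 3 arms were called higher and none lower. This held for 12 of 20 XBP1 targets (median 0.53), 6 of 10 ATF6 targets (0.57), 11 of 18 ATF4 and CHOP targets (0.63) and 6 of 8 RIDD substrates (0.83), where 22.1% of all genes were called higher. Among the 13911 protein-coding genes 3705 were called higher and 2714 lower. Dnajc3 (0.71), which encodes an inhibitor of PERK, Pdia6 (0.70), a disulfide isomerase gene, and Edem1 (0.65) had the smallest p of the XBP1 targets, though not the largest folds, and Canx (0.82), Calr (0.59) and Hyou1 (0.57) those of the ATF6 targets. Trib3 (1.86), Slc7a11 (1.72) and the stress sensor gene Sesn2 (0.92) had the smallest p of the ATF4 and CHOP targets, and Tapbp (1.29), the myelin gene Pmp22 (1.24) and Sparc (0.77) those of the RIDD substrates. Partners were called in both directions, where 22.1% of all genes were called higher and 22% lower. Of 7 tested IRE1 partners 3 were higher and 1 lower, and of 9 ATF6 partners 3 and 3. Of 10 PERK and eIF2 partners 1 was higher and 1 lower. Creb3l1 (1.88), Tmbim6 (1.03), Rtcb (0.76) and the phosphatase gene Ptpn1 (0.50) were among the higher ones. The lower ones were Eif2ak4 (-0.60), Mbtps2 (-0.52), Nfyb (-0.36), Nfya (-0.28) and Mapk8 (-0.28). In none of the 3 target lists was a gene lower at an unadjusted p below 0.05, by DESeq2 or by voom. Macrophage markers differed in the same comparison, with 9 of 10 higher and sums of 1053 to 1522 CPM in P53ERTAM Combo and 343 to 461 CPM in EV Combo tumors, and their part in the target values was not tested.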

How the data were processed

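Per the labels' protocols, bulk tumor RNA (Direct-zol) went into Illumina Stranded Total RNA libraries with Ribo-Zero. The submitters' processing notes name FastQC and fastp, STAR, and featureCounts on the build GRCm38.p5, with no versions. Which annotation and strand setting were used is not given in the sources used here. The files deposited by the authors give the raw count of each gene and its summed exon length, per the file headers, without normalization. No batch is given in the labels.

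Symbols were matched through GENCODE for 52489 of 52636 identifiers. Genes with a count numbered 31622, and edgeR's filterByExpr left 17970, which kept 99.85 to 99.93% of the counts. Tests used the quasi-likelihood F-test of edgeR 4.0.16 (R 4.3.3; TMM factors 0.941 to 1.05; robust), with the 4 group means fitted together (8 residual degrees of freedom) and a biological coefficient of variation of 0.221, Benjamini-Hochberg adjusted over all genes tested, with a threshold of 0.05. Intervals are unadjusted 95% intervals from the same fit. Log2 CPM used a prior count of 2. The fit was checked on simulated counts in which few genes changed, evenly up and down, with the same spread for all genes. That setting is unlike these libraries, so the check cannot show that scaling or error rates hold here. Within groups, counts differed by more than sampling noise, so no library was counted as a repeat. Of counts between 1 and 20, 66.3 to 71.7% were even, against 49.2 to 52.1% of those above 200, so counting error may be larger than the counts show.

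The named genes are all 10 members in every comparison and Cdkn1a, 1 of 4 genes set as checks of the vector. From each list of partners and targets they are up to 3 genes with the smallest p in each direction. These were taken among those with adjusted p below 0.05 and at least 1 normalised CPM in the higher group. For pattern likeness they are the 4 protein-coding genes with the smallest root mean square difference, of which 1 is not reported here. Replicates named as high or low were picked after their values were seen. The members and lists were chosen with earlier results of these data known. Alternatives were DESeq2 1.42.0 size factors and its Wald test, voom with quality weights (limma 3.58.1), no filter, at least 1 CPM in 3 libraries, protein-coding genes only, GC and length offsets (mgcv 1.9.3), a replicate block, the 2 groups compared alone, and leaving out each library.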

Additional observations from a re-analysis of the deposited data

Results flagged for a closer look

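The change with Combo differed between P53ERTAM and EV tumors in 4 members by a test of the difference itself (edgeR quasi-likelihood F-test of the interaction, adjusted p below 0.05). The difference, P53ERTAM minus EV on the log2 scale, was 1.38 for Xbp1, 0.67 for Atf6, 0.47 for Atf6b and 0.50 for Atf4. For Xbp1, Atf6b and Atf4 the change was called in EV tumors, and for Atf6 it was called in both, upward in P53ERTAM and downward in EV tumors. The Atf6 call held under 15 of 21 alternatives in P53ERTAM tumors and under 8 of 21 in EV tumors. Among protein-coding genes alone the differences of Atf4 and Atf6b were not called (edgeR adjusted p = 0.108 and 0.0878). All 3 EV Combo libraries, which enter each difference, had 10.7 to 11.1% of their counts in Gm26917, and the part of this make-up cannot be told apart from that of treatment.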

How the results depend on the processing

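Of the values of the members under the alternatives, 917 kept their direction and their side of the threshold, 67 lost a call, 13 gained one and 43 changed sign. Every sign change was in a value that was not called in either fit. The calls that held under every alternative were Xbp1, Atf4 and Atf6b for Combo in EV tumors, Atf6, Atf4 and Ppp1r15a between the vectors under Combo, and Xbp1 and Atf6 for the interaction. The number of genes called for Combo in P53ERTAM tumors was 1129, and 2206 by DESeq2, 3748 by voom, 1890 with those 2 groups alone and 77 to 2130 without 1 library. The members called there were 1, and 0 with GC and length offsets and 0 to 1 without 1 library. Between the vectors under Vehicle 4 members were called, 2 by voom, 2 without the filter, 1 with the 2 groups alone and 1 to 5 without 1 library. Between the vectors under Combo 5 were called, 8 by voom and 3 to 6 without 1 library. For the interaction 6473 genes and 4 members were called, and 4086 genes and 2 members among protein-coding genes alone. The cause of these differences was not tested, except that fewer genes or libraries entered some of the fits. The interaction could not be fitted with 2 groups alone.

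The values that changed sign were as follows. For Combo in EV tumors Ern1 was at -0.062 with GC and length offsets, Eif2ak3 at 0.017 by voom and 0.023 among protein-coding genes, and without 1 library Ern1 ranged from -0.043 to 0.11, Eif2ak3 from -0.24 to 0.15 and Ddit3 from -0.65 to 0.013. For Combo in P53ERTAM tumors Ern1 was at -0.0014 among protein-coding genes and -0.049 with the offsets, Atf6b at -0.012 by voom and -0.030 among protein-coding genes, and Ppp1r15a at 0.041 by voom. Without 1 library Atf6b ranged from -0.048 to 0.072, Ppp1r15a from -0.57 to 0.0083 and Dnajb9 from -0.041 to 0.45. Between the vectors under Vehicle Eif2ak3 was at -0.027 and Dnajb9 at -0.23 with the offsets, and without 1 library they ranged from -0.13 to 0.26 and from -0.20 to 0.29. For the interaction Ern1 was at -0.020 with DESeq2 size factors, -0.013 by DESeq2 and -0.15 among protein-coding genes, and from -0.056 to 0.096 without 1 library. Ppp1r15a was at -0.021, -0.015 and -0.16 under the same 3 settings and from -0.22 to 0.38 without 1 library. Calls gained included Dnajb9 for Combo in EV tumors, at -0.89 with the offsets (adjusted p = 0.0167) and at -0.54 without P53ERTAM Vehicle replicate 2 (adjusted p = 0.0207).

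Deviations from the group means correlated at -0.149 to 0.211 (median -0.0262) for the 18 pairs of libraries with the same replicate number. For the 36 other pairs they correlated at -0.262 to 0.152 (median 0.0158). With 3 libraries per group these values cannot exclude that the replicate numbers pair the libraries. With the replicate number as a block the Atf6b call between the vectors under Vehicle was lost (adjusted p = 0.0658), Dnajb9 was at -0.013 there, 3224 genes were called higher and 3565 lower for Combo in EV tumors, and no other call on a member changed. Depth limits the low members most: Ddit3, Ppp1r15a and Dnajb9 had as few as 97, 112 and 120 counts in a library.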
